A study of Homo sapiens with 4 samples.

Results

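The human mitochondrial genome (mtDNA) carries 13 protein genes, and 10 of them, ND1 to ND5, COX1 to COX3, ATP6 and CYTB, were followed here across 2 liver tumour cell lines with and without knockdown of COP1. The 10 genes were taken as the rows of the mitochondrial chromosome whose NCBI Gene ID belonged to a listed gene, because these rows carry no gene symbol. They were 10 of 46427 genes in the tables, and their values played no part in the choice. The lines, Huh7 and HepG2, are established and of human origin, and the labels give both as hepatocellular carcinoma. The 4 groups were Huh7 with a negative control siRNA (NC-siRNA), Huh7 with an siRNA against COP1 (COP1-siRNA), HepG2 with NC-siRNA and HepG2 with COP1-siRNA. The labels call the NC-siRNA cells WT and the COP1-siRNA cells COP1 Knockdown. Each siRNA was used at 20 nM, transfection with a lipid reagent was common to all 4 groups, and RNA was taken after 48 h. Each group was 1 culture and 1 library, all 4 in 1 labelled batch, so no difference below has a replicate check and no p-value was computed.

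The respiratory chain passes electrons from NADH and succinate to oxygen through complexes I to IV, and ATP synthase, complex V, uses the proton gradient they build. Most subunits are nuclear genes, while mtDNA encodes hydrophobic core subunits of complexes I, III, IV and V. Both strands of mtDNA are transcribed as long polycistronic RNAs by the mitochondrial RNA polymerase, and the mRNAs are released by cleavage, mostly at the tRNAs between them, and then given short poly(A) tails. Liver cells are rich in mitochondria. COP1 is a ubiquitin ligase, and the study asked what its loss changes in liver tumour cells.

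The libraries were made from poly(A)-selected RNA, and the tails of these mRNAs are part of their coding function. The last 15 bases of each gene are shown for that reason, on the plus strand of GRCh38 chromosome M as annotated in GENCODE 29, with the stop codon, or the part of it that the DNA encodes, in capitals.
ND1: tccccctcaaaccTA
ND2: tactaataatcttaT
COX1: tacataaaatctAGA
COX2: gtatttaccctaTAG
ATP6: cacgacaacacaTAA
COX3: attgatgagggtctT
ND3: tagactgaaccgaaT
ND4: ccgggttttcctctT
ND5: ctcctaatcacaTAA
CYTB: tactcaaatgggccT
Of the 10 genes, 6 ended in T or TA, a stop codon that is complete only once the tail is added, and 4 encoded a whole stop codon. COX1 ended in AGA, which is read as the end of COX1 in human mitochondria. The 10 genes lie on the same strand, and their GC content ranged from 40.2% to 47.7%.

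Some neighbouring genes share bases, which limits how far their values are separate measurements. ATP6 overlaps ATP8 over 46 bases from 8527 to 8572, and ND4 overlaps ND4L over 7 bases from 10760 to 10766. The start codons of ATP6 and ND4 are in capitals in the stretches below, chrM:8515-8544 and chrM:10748-10766, which are shown because each start lies inside the gene before it.
ATP6 start: ctgagaaccaaaATGaacgaaaatctgttc
ND4 start: aaacctactccaATGctaa
ATP6 and COX3 share base 9207. Values of the 4 libraries are given below in a fixed order, Huh7 before HepG2 and, within a line, the control siRNA before COP1-siRNA. The TPM of ATP8 was 0.912, 0.903, 0.917 and 0.911 times that of ATP6. For ND4L over ND4 the ratios were 0.760, 0.752, 0.794 and 0.768. Both pairs thus kept nearly the same ratio in all 4 libraries.

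The targeted gene, COP1, was at 19.7 TPM in Huh7 with NC-siRNA and 6.18 with COP1-siRNA, and at 26.9 and 16.1 in HepG2. On the log2 scale these are differences of −1.53 and −0.71, which were −0.67 and −0.41 when depth-scaled coverage took the place of TPM. The size of the knockdown in both lines, but not its direction, thus depends on the unit. On TPM, COP1 was lower past 2-fold in Huh7 but not in HepG2, and with depth-scaled coverage in neither line. The study, by its own measure, lists COP1 among the genes down at least 2-fold in both lines. TPM is a transcript level scaled for gene length and for the total of the library, and each library sums to 1000000. Depth is known only in relative terms, from the coverage per unit of FPKM, which was 6.59, 7.47, 5.75 and 7.31, so that the library with COP1-siRNA was deeper than its control by a factor of 1.13 for Huh7 and 1.27 for HepG2. The 9 hepatocyte markers were at 1 TPM or more in each library, with summed levels of 20309, 18181, 2672 and 3083 TPM. Of 7 markers of blood, endothelial, stromal and other epithelial cells, 5 were under 1 TPM in each library, PTPRC and KRT5 were at 0 in all 4, and the sums ran from 18.3 to 64.2 TPM.

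The 10 genes were among the most abundant transcripts of both lines. Together they held 8.73% and 10.5% of all TPM in Huh7 with NC-siRNA and COP1-siRNA, and 5.84% and 5.95% in HepG2. In each library 5 of the 10 genes with the highest TPM of the whole table were among them. The share was thus higher in each Huh7 library than in either HepG2 library, and the widest step between siRNAs was in Huh7. In bulk RNA, fewer cells carrying a transcript and less of it per cell cannot be told apart. The coverage of a gene multiplied by its length gives the aligned bases behind its value, which ran from 2.29 megabases for ND3 in HepG2 with NC-siRNA to 90.9 megabases for COX1 in Huh7 with COP1-siRNA.

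**Figure D1:**
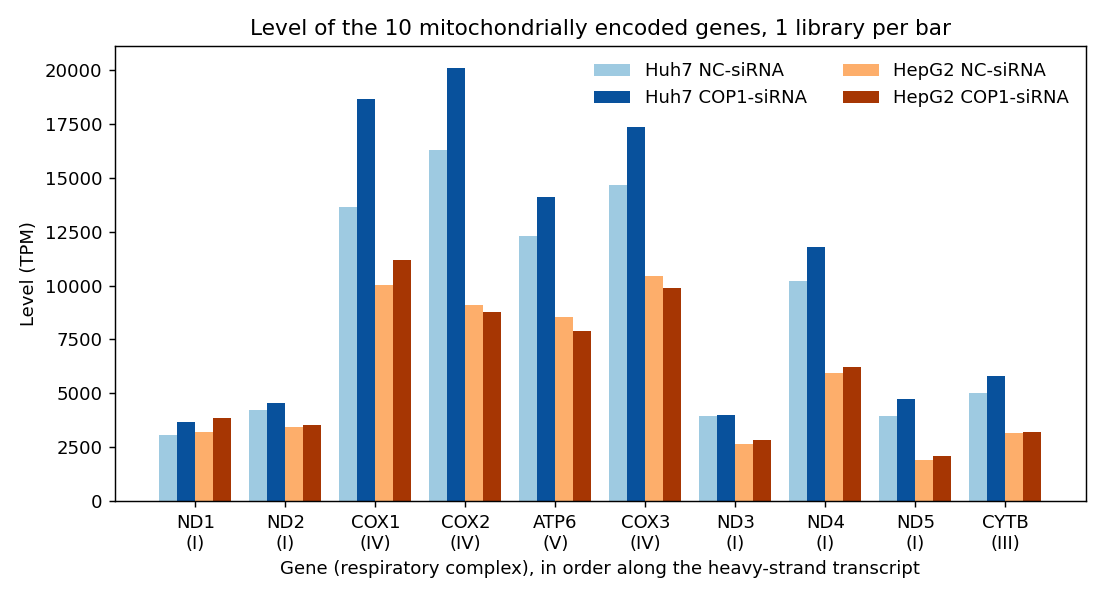
Level of each of the 10 genes in TPM (vertical axis, from 0), with 1 bar per library, in order along the heavy-strand transcript; there is no error bar because each group is 1 library. The complex IV genes and ATP6 stand highest, up to 20103 TPM for COX2 in Huh7 with COP1-siRNA, and ND5 in HepG2 with NC-siRNA is lowest at 1898 TPM.

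Complex IV, cytochrome c oxidase, hands electrons to oxygen, and its 3 largest subunits are the mtDNA products COX1, COX2 and COX3. COX1 (Gene ID 4512, chrM:5904-7445), which holds the oxygen-reducing centre, was at 13642, 18640, 10004 and 11200 TPM. COX2 (4513, chrM:7586-8269), which takes electrons from cytochrome c, was at 16291, 20103, 9106 and 8753 TPM. COX3 (4514, chrM:9207-9990) was at 14673, 17330, 10428 and 9881 TPM. The 3 genes together made up 51.1%, 53.5%, 50.6% and 50.2% of the summed TPM of the 10 genes. In both lines COX1 was higher with COP1-siRNA, whereas COX2 and COX3 were higher with COP1-siRNA in Huh7 and lower in HepG2.

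ATP6 (4508, chrM:8527-9207), the subunit of ATP synthase that forms the proton path beside the rotor, was at 12283, 14111, 8543 and 7880 TPM. It too was higher with COP1-siRNA in Huh7 and lower in HepG2. CYTB (4519, chrM:14747-15887), the mtDNA-encoded core of complex III, was at 5003, 5785, 3174 and 3221 TPM. The HepG2 pair of CYTB values was nearly equal.

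Complex I, NADH dehydrogenase, is the entry point for electrons from NADH, and the ND genes encode its membrane arm. ND4 (4538, chrM:10760-12137), a proton-pumping subunit, was the most abundant of the 5, at 10231, 11797, 5928 and 6229 TPM. ND5 (4540, chrM:12337-14148), another pumping subunit at the far end of the arm, was at 3932, 4724, 1898 and 2083 TPM. ND2 (4536, chrM:4470-5511), also a pumping subunit, was at 4214, 4562, 3419 and 3532 TPM. These 3 genes were higher in each Huh7 library than in either HepG2 library. ND3 (4537, chrM:10059-10404), a small subunit near the junction of the arms, was at 3941, 4018, 2661 and 2835 TPM. ND1 (4535, chrM:3307-4262), which lines the ubiquinone pocket, was at 3082, 3659, 3191 and 3870 TPM. ND1 differed from the other 9 in the order of its TPM values, with both COP1-siRNA libraries above both controls. That order depends on the scaling: with median of ratios ND1 was lower in HepG2 than in Huh7, by log2 differences of −0.29 with NC-siRNA and −0.25 with COP1-siRNA.

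Ordered by level, the same 5 genes, the 3 COX genes, ATP6 and ND4, led in all 4 libraries, with ATP6 directly after the COX genes and ND4 next. The first place went to COX2 in both Huh7 libraries, to COX3 in HepG2 with NC-siRNA and to COX1 in HepG2 with COP1-siRNA. ND1 was last in both Huh7 libraries and ND5 in both HepG2 libraries. The highest gene stood 5.29, 5.49, 5.49 and 5.38 times above the lowest. With no spread to measure, neighbours in this order, such as COX3 and COX1 in HepG2 with NC-siRNA or ND3 and ND5 in Huh7 with NC-siRNA, cannot be called different.

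In Huh7, each of the 10 genes was higher with COP1-siRNA than with NC-siRNA, against 49.9% of the 13000 genes tested. A gene was tested in a comparison if it reached 1 TPM in at least 1 of its libraries, which all 10 did. The differences on the scale log2((TPM + 1)/(TPM + 1)) ran from 0.03 for ND3 to 0.45 for COX1, with a median of 0.22, while the median over all tested genes was −0.00083 and their interquartile range −0.15 to 0.14. COX2 followed at 0.30, ND5 at 0.26, ND1 at 0.25 and COX3 at 0.24. ND4, CYTB and ATP6 lay between 0.20 and 0.21, and ND2 at 0.11. Thus 8 of the 10 genes lay above the upper quartile of all genes, although 0 were past 2-fold, against 1.08% of tested genes past 2-fold in either direction, 0.638% higher and 0.446% lower.

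In HepG2, 7 of the 10 genes were higher with COP1-siRNA, against 48.3% of the 14456 genes tested, and 3 were lower, against 51.7%. ND1 had the widest difference at 0.28 on the log2 scale, followed by COX1 at 0.16 and ND5 at 0.13. ND3 at 0.09, ND4 at 0.07, ND2 at 0.05 and CYTB at 0.02 lay inside the interquartile range of all genes, −0.15 to 0.13. The 3 lower genes were COX2 at −0.06, COX3 at −0.08 and ATP6 at −0.12, also inside that range. The median of the 10 was 0.06, beside −0.008 over all genes, and 0 were past 2-fold, against 0.934% of tested genes, 0.54% higher and 0.394% lower. All 5 ND genes were higher with COP1-siRNA in both lines, as were COX1 and CYTB, against 29.2% of the 11970 genes tested in both.

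**Figure D2:**
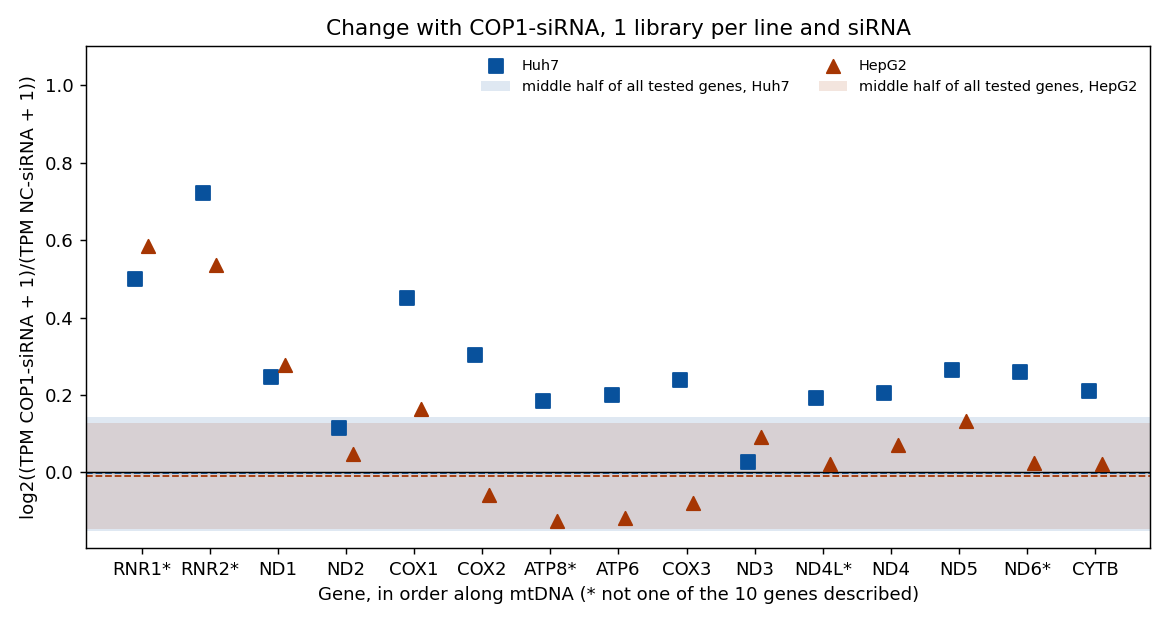
Difference between COP1-siRNA and NC-siRNA, log2((TPM + 1)/(TPM + 1)), in Huh7 (squares) and HepG2 (triangles) for the 10 genes and, with an asterisk, the other mtDNA protein and rRNA genes, in order along mtDNA; each band is the interquartile range and each dashed line the median of all tested genes. The Huh7 points of the 10 genes span 0.03 to 0.45 and the HepG2 points −0.12 to 0.28, and the rRNA genes RNR1 and RNR2 span 0.50 to 0.72.

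Across the 2 lines, 7 of the 10 genes were higher with COP1-siRNA in both, against 29.2% of the 11970 genes tested in both. The other 3, COX2, COX3 and ATP6, were higher in Huh7 and lower in HepG2, against 20% of those genes. The HepG2 difference minus the Huh7 difference was −0.36 for COX2, −0.32 for COX3 and −0.32 for ATP6, and 0.06 for ND3 and 0.03 for ND1 at the other end. The median over the 10 genes was −0.16, beside 0.007 over all genes. With 1 library per line and siRNA the difference between the lines was not tested. Depth was higher with COP1-siRNA in both lines, as given above, and its part in these differences was not tested. The drop in COP1 was also wider in Huh7, −1.53 against −0.71 on the log2 scale, and −0.67 against −0.41 with depth-scaled coverage. Line and size of knockdown thus differed together, and the part of either was not tested.

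With 1 library per group, and so no spread to judge shifts by, the values of the 10 genes did not move in step. This shows in the share each held of their summed TPM, a measure that does not depend on the nuclear genes. COX1 held more with COP1-siRNA in both lines, 17.8% against 15.6% in Huh7 and 18.8% against 17.1% in HepG2. ND1 held 3.53% and 3.49% in Huh7, but 5.47% and 6.51% in HepG2. ATP6 held less with COP1-siRNA in both lines, 13.5% against 14.1% in Huh7 and 13.2% against 14.6% in HepG2. COX2 held 18.7% and 19.2% in Huh7 and 15.6% and 14.7% in HepG2. Its TPM was 1.19, 1.08, 0.910 and 0.782 times that of COX1, so the ratio was lower with COP1-siRNA in each line and lower in HepG2 with each siRNA. Counting by complex, the complex I genes held 29.1%, 27.5%, 29.3% and 31.2%, and CYTB between 5.42% and 5.73%.

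**Figure D3:**
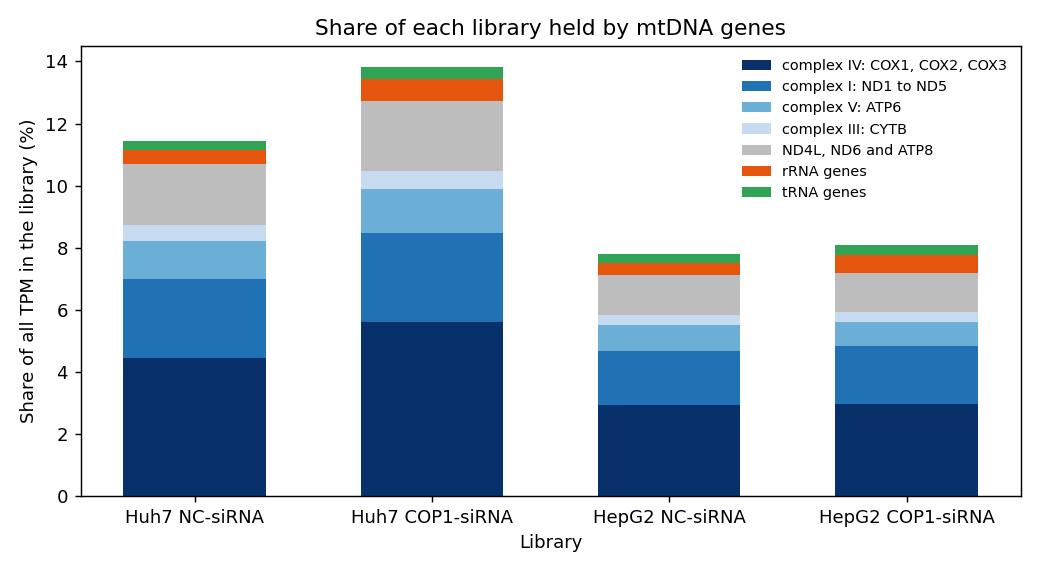
Share of all TPM in each library (percent, stacked from 0) held by the 10 genes by complex, by the other mtDNA protein genes ND4L, ND6 and ATP8, and by the rRNA and tRNA genes of mtDNA. The full stack of 37 mtDNA genes stands at 11.4%, 13.8%, 7.81% and 8.10%, and the complex IV genes are its widest layer in each library.

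Between the lines, 9 of the 10 genes were lower in HepG2 than in Huh7 with NC-siRNA, against 37% of the 15055 genes tested, and 9 were lower with COP1-siRNA, against 36.9% of 15126. These comparisons use the same 4 libraries as those above. With NC-siRNA, ND5 was lowest at −1.05 on the log2 scale, a fold of 0.483, and the only gene of the 10 past 2-fold, against 14.7% of tested genes lower past 2-fold. COX2 followed at −0.84, ND4 at −0.79 and CYTB at −0.66. ND3 at −0.57, ATP6 at −0.52, COX3 at −0.49 and COX1 at −0.45 lay just below the lower quartile of all genes, −0.42, and ND2 at −0.30 above it. ND1 was at 0.05, and 63% of tested genes were above 0. The median of the 10 was −0.55, whereas the median over all tested genes was 0.37.

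With COP1-siRNA the difference between HepG2 and Huh7 was more negative than with NC-siRNA for 8 of the 10 genes, and less so for ND3, while ND1 stayed above 0. COX2 at −1.20 and ND5 at −1.18 were past 2-fold, against 14% of tested genes lower past 2-fold. ND4 was at −0.92, CYTB and ATP6 were both at −0.84, COX3 was at −0.81 and COX1 at −0.73. ND3 was at −0.50, ND2 at −0.37 and ND1 at 0.08. The median was −0.83, beside 0.35 over all genes, and ND1 was again alone above 0, as were 63.1% of tested genes. ND1 was below 0 in both comparisons when the libraries were scaled by median of ratios or upper quartile or when the nuclear genes alone were made to sum to the same total. The 9 hepatocyte markers were also lower in sum in HepG2, as given above, and their part in this result was not tested.

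**Figure D4:**
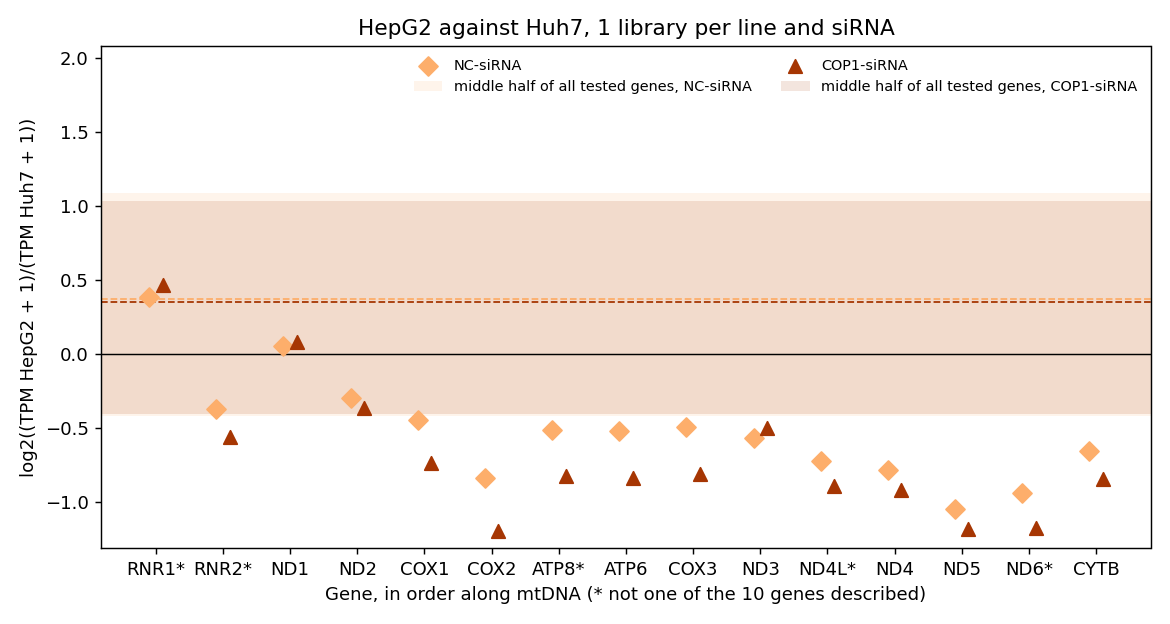
Difference between HepG2 and Huh7, log2((TPM + 1)/(TPM + 1)), with NC-siRNA (diamonds) and COP1-siRNA (triangles) for the 10 genes and, with an asterisk, the other mtDNA protein and rRNA genes, in order along mtDNA; each band is the interquartile range and each dashed line the median of all tested genes. ND1 stands at 0.05 and 0.08, the other 9 genes stand below 0 down to −1.20 for COX2 with COP1-siRNA, and RNR1 stands above 0.

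The difference between the lines was lower, on the whole, for genes farther along the transcript. Over the 10 genes, Spearman's rho of gene order against the log2 difference was −0.76 with NC-siRNA and −0.61 with COP1-siRNA. With the rRNA genes RNR1 and RNR2, which precede ND1, it was −0.84 and −0.71 over 12 genes. For COP1-siRNA against NC-siRNA it was −0.16 in Huh7 and −0.21 in HepG2 over the 10 genes, and −0.51 and −0.55 over the 12 genes. These are descriptions across genes that share 1 genome, 1 precursor RNA and the same libraries.

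The other 3 protein genes of mtDNA were measured too. ND4L, a complex I subunit, was at 7772, 8875, 4710 and 4783 TPM. ATP8, a small ATP synthase subunit, was at 11207, 12737, 7832 and 7177 TPM. ND6, the complex I subunit encoded on the opposite strand from the 10, was at 684, 819, 356 and 362 TPM. All 3 were higher with COP1-siRNA in Huh7, by 0.18 to 0.26 on the log2 scale, and in HepG2 ATP8 was at −0.13, as its overlapping partner ATP6 was at −0.12. The TPM of ND6 was 0.174, 0.173, 0.188 and 0.174 times that of ND5, its neighbour on the other strand. The strand setting of the counting is not known, so the ND6 values could hold reads of the opposite strand, which was not tested.

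The ribosomal RNAs of mtDNA, which lie upstream of ND1, had wider differences with COP1-siRNA than any of the 10 in the same line. RNR1, the small-subunit rRNA, was at 1054, 1491, 1372 and 2060 TPM, and RNR2, the large-subunit rRNA, at 3412, 5629, 2630 and 3814 TPM. On the log2 scale RNR1 was higher by 0.50 in Huh7 and 0.59 in HepG2, and RNR2 by 0.72 and 0.54. As a share of all TPM the 2 rRNAs stood at 1.59 times the control in Huh7 and 1.47 times in HepG2, where the 10 mRNAs stood at 1.20 and 1.02 times. RNR2 was 3.24 and 3.78 times RNR1 in Huh7 and 1.92 and 1.85 times in HepG2. Mitochondrial rRNAs carry very short tails, and 6 histone genes whose mRNAs lack a tail summed to 5.29, 5.42, 10.2 and 13.2 TPM. The part of differences in selection in these values was not tested.

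The nuclear subunits of the respiratory chain had differences near 0. Of 83 nuclear subunits listed, 79 were tested, and their median log2 difference with COP1-siRNA was −0.006 for Huh7 and 0.02 for HepG2. In each line 0 were higher past 2-fold, against 0.638% of all tested genes in Huh7 and 0.54% in HepG2. In each line 1 was lower, against 0.446% and 0.394%. That gene was COX7A2, a complex IV subunit, at 507 and 173 TPM in Huh7 and 372 and 173 in HepG2. COX7A2 is among the genes the study selected on these samples, so its direction is not independent evidence. The nuclear subunits summed to 2.30%, 2.25%, 2.52% and 2.54% of all TPM. The 10 mtDNA genes thus stood at 3.80 and 4.66 times the nuclear sum in Huh7 and at 2.31 and 2.34 times in HepG2.

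By complex, the medians of the nuclear subunits lay within 0.08 of 0 on the log2 scale in both lines, except complex II in HepG2, which has no mtDNA subunit, at 0.25 over 4 genes. With depth-scaled coverage the complex II medians were 0.18 in Huh7 and 0.05 in HepG2, so that exception depends on the unit. Among complex I genes, NDUFB10, an accessory subunit, was at −0.18 in Huh7 and −0.32 in HepG2. Within complex II, or succinate dehydrogenase, SDHC, a membrane anchor, was at −0.54 and 0.37 in the 2 lines. Complex III genes ran from −0.11 for UQCR11 to 0.13 for UQCRFS1, the iron-sulphur subunit, in Huh7. In complex IV, COX4I1 was at 0.12 and 0.07 and COX7B at 0.28 and 0.01. For complex V, ATP5MC3, a subunit of the rotor ring, was at −0.28 and −0.08, and ATP5ME at 0.19 and 0.02. With another scaling or unit the sign of the median turned for complexes II to V in Huh7 and for complexes I and IV in HepG2. Between the lines, 7 nuclear subunits were higher in HepG2 past 2-fold and 4 lower with NC-siRNA, with a median of 0.22, against 27.9% and 14.7% of all tested genes. With COP1-siRNA 9 were higher and 3 lower, with a median of 0.26, against 26% and 14%. The sign of the median between the lines turned with another scaling or unit for complexes I, IV and V with both siRNAs and for complex II with NC-siRNA.

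**Figure D5:**
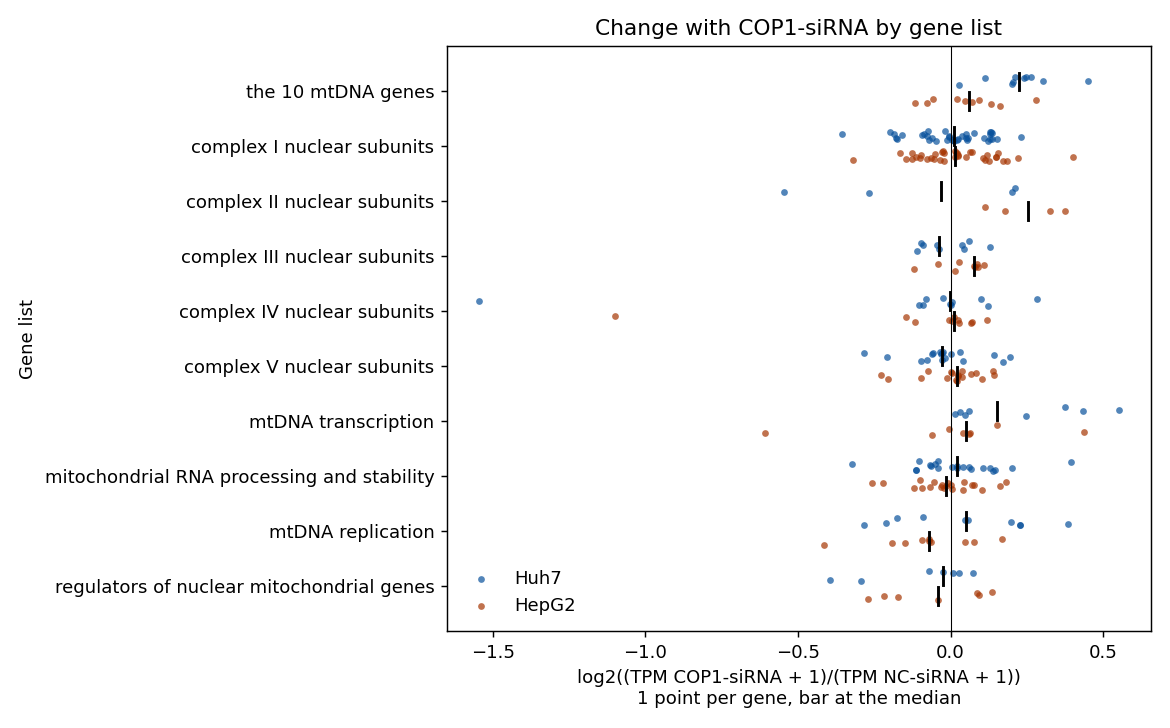
Difference between COP1-siRNA and NC-siRNA, log2((TPM + 1)/(TPM + 1)), with 1 point per gene in Huh7 (upper row of each list) and HepG2 (lower row) and a bar at the median, for the 10 mtDNA genes and for lists of nuclear genes. The 10 genes have medians of 0.22 and 0.06, the nuclear subunits cluster about 0, and COX7A2 stands apart at −1.54 and −1.10.

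Nuclear genes listed for the transcription of mtDNA had a median of 0.15 in Huh7 and 0.05 in HepG2 over 8 genes. The list includes TFB1M and MTERF4, whose roles given below are with rRNA and the ribosome. Above 0 were 8 genes in Huh7 and 5 in HepG2, against 49.9% and 48.3% of all tested genes. Past 2-fold were 0, against 1.08% and 0.934%. The HepG2 median was 0.009 with depth-scaled coverage. TEFM, the elongation factor of the mitochondrial polymerase, was at 9.31 and 14.1 TPM in Huh7 and at 12.2 and 16.8 TPM in HepG2, differences of 0.55 and 0.44 on the log2 scale. TFB1M, a methyltransferase of mitochondrial rRNA, was at 0.43 and 0.06. MTERF4, which takes part in assembly of the mitochondrial ribosome, was at 0.25 and −0.61, and MTERF3 at 0.03 and −0.06. The polymerase itself, POLRMT, and the packaging factor TFAM were at 0.06 and 0.15 and at 0.01 and −0.005. The remaining genes of the list, TFB2M and MTERF1, were at 0.37 and 0.06 and at 0.05 and 0.04. POLRMT and TFAM are named for their roles, TFB2M and MTERF1 to complete the list, all after their values were seen. Between the lines the 8 genes had medians of 0.78 with NC-siRNA and 0.49 with COP1-siRNA, beside 0.37 and 0.35 over all tested genes. With median of ratios they were 0.45 and 0.17, beside 0.06 and 0.06 over all tested genes.

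Genes for processing and stability of mitochondrial RNA had medians of 0.02 and −0.02 over 21 genes. In either line 0 were past 2-fold, against 1.08% of all tested genes in Huh7 and 0.934% in HepG2. MTPAP, the mitochondrial poly(A) polymerase, was at 0.20 and 0.07, and PNPT1, of the RNA degradation complex, at −0.05 and −0.22. ANGEL2 was at 0.39 and −0.07, and FASTKD5, which acts on maturation of mitochondrial mRNAs, at −0.32 and −0.03. For replication of mtDNA the medians were 0.05 and −0.07 over 10 genes, with TOP1MT, the mitochondrial topoisomerase, at 0.23 and 0.08, DGUOK, a nucleoside kinase, at 0.38 and −0.09, MGME1, a nuclease, at −0.18 and −0.19, and PRIMPOL at 0.06 and −0.41. Among 7 regulators of nuclear mitochondrial genes the medians were −0.03 and −0.04, and the first turned sign with another scaling or unit. ESRRA, an orphan receptor, was at −0.40 and −0.27, NRF1 at 0.01 and 0.14, GABPB1 at −0.07 and −0.22, and PPRC1 at 0.07 and 0.09.

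The pattern of the 10 genes over the 4 libraries was compared with that of 8393 nuclear genes with a mean of at least 10 TPM, by the root mean square difference of centred log2(TPM + 1) values from the median of the 10. The nearest were SNX3 at 0.019, THUMPD3-AS1 at 0.019, DDA1 at 0.028, UBE3B at 0.029 and IQGAP1 at 0.030, and 183 genes lay within 0.1. Of the 10 genes, CYTB lay nearest to their own median at 0.025 and ND1 farthest at 0.40. A profile of 4 libraries is short, and many genes resemble it.

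The nuclear genome holds old copies of mtDNA, and some are nearly identical to the genes described. The best GENCODE 29 pseudogene matched ND2 at 98.4%, COX1 at 98.6%, COX2 at 98.0% and ATP6 at 98.5% of aligned bases, each over the whole gene. The best match was 95.8% for ND4 and 93.0% for ND5, and between 82.1% and 87.5% for ND1, ND3, COX3 and CYTB. Best here means the copy with the most identical bases. A shorter copy of higher identity would therefore be passed over, and such copies were not examined. Rows of these pseudogenes were not analysed here, so how reads were divided between them and the 10 genes was not tested.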

How the data were processed

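RNA of 4 cultures was sequenced from stranded poly(A) libraries. Per the submitters' processing notes, the tools were FastQC 0.11.7, Trimmomatic 0.38, HISAT2 2.1.0, StringTie 2.1.3b and edgeR, with the build GRCh38. The authors deposited a coverage signal, an FPKM and a TPM value for each gene and library. The coverage deposited is not scaled for depth, the FPKM is scaled for depth and gene length, and the TPM deposited sums to 1000000. No read counts were used, depth is known only as a ratio, and no interval could be computed. The strand setting of the counting is not given in the sources used here. Reads of opposite strands over the same bases, as at ND6 and the minus-strand tRNA genes, therefore cannot be told apart.

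TPM was summed per gene ID, and 52 IDs stood on more than 1 line, 0 of them among the 10 genes. RefSeq gave symbols for 96.3% of the gene IDs, and mtDNA positions were those of GENCODE 29. Differences were taken over the whole table as log2 with a pseudocount of 1, for genes at 1 TPM or more in at least 1 library compared. The threshold was the 2-fold of the study, without the p-value limit that the study set beside it. There was no test. All 10 genes were named, as were the other mtDNA protein and rRNA genes, COP1, list genes past 2-fold in either line, the 2 genes of each list with the highest and the 2 with the lowest mean change over both lines, and the 5 nuclear genes nearest in pattern. Marker lists are given as sums and values are named here only for some of the genes that rule allows, and 1 gene it names is not reported here. The genes and lists were chosen with earlier results of these data known. Alternatives were a pseudocount of 0.1, FPKM, depth-scaled coverage, median-of-ratios and upper-quartile scaling, scaling to nuclear genes, no minimum TPM, a minimum of 5, a 1.5-fold threshold, all 13 protein genes, and shares of aligned bases. The computation was tested on simulated data. BLAST 2.17.0 matched genes to pseudogenes. Python 3.11.15, numpy 2.4.6, pandas 2.3.3, SciPy 1.17.1 and matplotlib 3.10.9 were used.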

Additional observations from a re-analysis of the deposited data

Results flagged for a closer look

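With COP1-siRNA, 3 of the 10 genes lay on opposite sides of 0 in the 2 lines, higher in Huh7 and lower in HepG2. The HepG2 difference minus the Huh7 difference was −0.36 for COX2, −0.32 for COX3 and −0.32 for ATP6 on the log2 scale. The 3 genes are neighbours on mtDNA, ATP6 and COX3 share a base, and 20% of the 11970 genes tested in both lines showed the same pair of directions. Each direction rests on 1 library per line and siRNA, and the difference was not tested. COP1 itself was lowered more in Huh7 than in HepG2, as given above, and the part of that in the difference was not tested either.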

How the results depend on the processing

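With COP1-siRNA, the directions of the 10 genes in both lines, 10 higher and 0 lower in Huh7 and 7 and 3 in HepG2, held under each alternative run. Most runs could hardly alter them. The minimum TPM and the fold threshold leave the values unchanged, and each scaling shifts all 10 genes by nearly the same small amount. The value closest to a change of sign, CYTB in HepG2, ran from 0.002 to 0.04. Between the lines values depended more on scaling. The count of genes lower in HepG2 past the threshold with NC-siRNA, 1 as reported, was 0 with FPKM, 0 with depth-scaled coverage, 3 with median of ratios and 4 at 1.5-fold, where 21.3% of all genes were called. With COP1-siRNA the count, 2 as reported, was 7 with median of ratios and 7 at 1.5-fold, where 21% were called. It was also above 2 with upper-quartile scaling and with scaling to nuclear genes, where ND4 passed 2-fold as well. The median with NC-siRNA was −0.89 with median of ratios, and with COP1-siRNA −1.15 with median of ratios and −0.94 with upper quartile. Median of ratios moved the median of all genes between the lines from 0.37 to 0.06 with NC-siRNA and from 0.35 to 0.06 with COP1-siRNA. It moved the split of higher against lower calls from 27.9% and 14.7% to 20.8% and 19.1%, and from 26% and 14% to 19.6% and 18.4%. The share held by the 10 genes was 3.29%, 4.07%, 2.12% and 2.20% of aligned bases, and with all mtDNA genes 11.4%, 13.8%, 7.81% and 8.10% of TPM. ND1 turned from higher to lower in HepG2 under 3 scalings. No paired analysis was possible because each group is 1 library and the result comes from no test. Leaving out a replicate was not possible for the same reason.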

Other observations

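Of the 22 tRNA genes of mtDNA, 21 were tested with COP1-siRNA, with median log2 differences of 0.21 for Huh7 and 0.17 for HepG2, beside 0.22 and 0.06 for the 10 mRNAs. TRNS1, on the minus strand just past the end of COX1, was the most abundant, at 1286, 1788, 903 and 1015 TPM, in the order of libraries used above. Its TPM was 0.0942, 0.0959, 0.0902 and 0.0906 times that of COX1, a nearly constant ratio. TRNY, on the minus strand just before COX1, was at 771, 952, 855 and 1074 TPM, and its ratio to COX1 was 0.0565, 0.0511, 0.0855 and 0.0959, higher in HepG2. TRNL1, between RNR2 and ND1 on the plus strand, was at 352, 369, 545 and 624 TPM, higher in HepG2 as RNR1 was. TRNN passed 2-fold in HepG2 with COP1-siRNA, at 1.22 and 3.51 TPM, a low level. These 4 tRNA genes were chosen after their values were seen. Whether the minus-strand genes TRNS1, TRNY and TRNN hold reads of the plus strand was not tested. Mature tRNAs are shorter than the fragments that the library protocol selects, so these values need not be levels of mature tRNA.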
